A study of Mus musculus with 6 samples.

Results

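The CD300 and TREM families are single-domain immunoglobulin-like receptors of myeloid cells, and many of their activating members signal through the transmembrane adaptor DAP12, which Tyrobp encodes. The 10 members described here were taken by gene symbol: Cd300a, Cd300e, Cd300lb, Cd300lf, Trem1, Trem2, Trem3, Treml2, Treml4 and Tyrobp. All 10 were listed among the 24346 genes of the deposited tables, and 9 of them were among the 11518 genes expressed highly enough to be tested. The exception was Trem2. Their levels were read in 6 libraries from mouse spleen: 3 after treatment with the alarmin IL-33, and 3 after PBS, its vehicle. All 6 were made from CD11c+ dendritic cells that had been pulled from spleen suspensions on an autoMACS magnetic separator. The labels give no strain, sex, age, dose or time, and do not say whether IL-33 was given to the animal or to cells in culture. Separate animals per library are not stated either, so a p-value here reflects only library-to-library spread, possibly of technical origin.

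In these families, inhibitory receptors carry cytoplasmic tyrosine motifs (ITIMs) that recruit phosphatases such as SHP-1, whereas activating receptors have short tails and pair with ITAM-bearing adaptors such as DAP12 or the Fc receptor gamma chain, which recruit the kinase Syk. Several members bind lipids exposed on dying cells. In dendritic cells and monocytes the balance of the opposed signals is known to set how strongly a cell responds to microbial products and to cell debris.

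Levels are in FPKM, a unit of fragments corrected by the authors for transcript length and library depth. A change is the mean log2(FPKM + 1) with IL-33 minus that with PBS, given with its standard error (SE), and understates the change of genes of low level. All changes come from 1 limma fit over all tested genes, two-sided, with p-values adjusted by Benjamini-Hochberg over all 11518 genes and called at an adjusted p of 0.05. The FPKM of a library summed to 778391 to 841884 with IL-33 and to 614522 to 641412 with PBS. The smallest steps in the values gave relative depths of 0.945 to 1.22 against PBS replicate 1, which overlapped between the groups. These steps also carry any scaling applied in the authors' processing, so equal sequencing depth is not shown. With libraries rescaled to equal totals the median change of all genes moved by -0.30, and the calls over all genes became 1280 higher and 5840 lower (11.1% and 50.7% of tested genes), against 3230 higher and 2939 lower as deposited. For the labelled cell type 12 dendritic cell markers were read, all of which were tested and none of which was listed at 0. This was no check of the label, because no listed marker of other cell types was at 0 in all 6 libraries either. Itgax, which encodes CD11c, stood at 272, 300 and 276 FPKM with IL-33, against 228, 249 and 247 FPKM with PBS. Its change was 0.23 (SE 0.07, limma adjusted p = 0.03). It was not called with equal totals (-0.11), quantile normalization (-0.17) or cyclic loess (-0.18). Of the 12 markers 5 rose and 5 fell. Those that fell were Flt3 (-0.61), Zbtb46 (-0.63), Xcr1 (-0.91), Clec9a (-0.60) and Ciita (-0.26), each also called lower under these 3 scalings. Of those that rose, Clec10a and Batf3 kept their call under all 3, and Itgax, H2-Aa and H2-Ab1 did not.

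The members were not moved in 1 direction. Of the 9 tested, 3 rose with IL-33 (Cd300lb, Tyrobp and Cd300a, of which Tyrobp turned to -0.03 with cyclic loess and Cd300a to -0.01 with equal totals), 4 fell (Cd300e, Cd300lf, Trem1 and Trem3) and 2 did not pass (Treml2 and Treml4). Over all tested genes 28% were called higher and 25.5% lower, so that 53.6% were called in either direction. The median change of the 9 was -0.39, and that of all tested genes 0.01. Called direction depended on scaling for part of the set: Cd300lb was the 1 member called higher with equal totals, with quantile normalization and with cyclic loess. Cd300lb, Cd300e and Trem3 kept their direction and their call in every alternative tried, including each left-out library. The groups did not overlap for 7 of the 9 tested members, and over all tested genes they did not overlap for 63.6%.

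**Figure D1:**
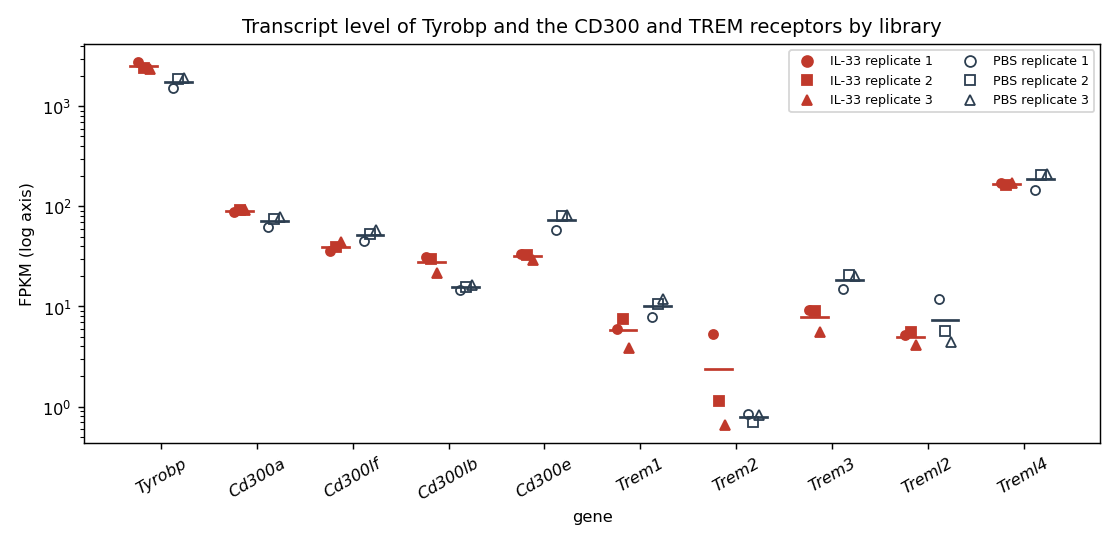
Each point is the FPKM of a gene in 1 library (log axis), filled for IL-33 and open for PBS, with a short line at the mean of 3 libraries. Tyrobp lies far above the receptors, Cd300e and Trem3 are lower in all 3 IL-33 libraries, Cd300lb is higher in all 3, and Trem2 is high in IL-33 replicate 1 alone.

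In both groups Tyrobp was the most abundant member and Treml4 came next, with no overlap between their libraries. With IL-33 the order then ran Cd300a, Cd300lf, Cd300e, Cd300lb, Trem3, Trem1, Treml2 and Trem2. The libraries of neighbours overlapped for Cd300e and Cd300lb, and from Trem3 down to Trem2. With PBS the order below Treml4 ran Cd300e, Cd300a, Cd300lf, Trem3, Cd300lb, Trem1, Treml2 and Trem2. There the libraries of neighbours overlapped for Cd300e and Cd300a, for Trem3 and Cd300lb, and for Trem1 and Treml2. The mean PBS level of Tyrobp exceeded that of 99.4% of tested genes, that of Treml4 96.3% and that of Trem1 43.3%.

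Tyrobp had 2763, 2431 and 2370.4 FPKM in IL-33 replicates 1, 2 and 3, against 1511, 1862 and 1909.7 FPKM in PBS replicates 1, 2 and 3. Every IL-33 library lay above every PBS library. The mean was 2522 ± 212 FPKM with IL-33 and 1761 ± 218 FPKM with PBS (SD, n = 3 each), a change of 0.52 (SE 0.12, limma adjusted p = 0.00787). The sign rested on the scaling: equal totals gave 0.18 (limma adjusted p = 0.0871), quantile normalization 0.04 and cyclic loess -0.03. In bulk RNA, here and for every other member, fewer cells of a type and less RNA per cell cannot be told apart. Relative to the median of all genes the change of Tyrobp was 0.51 as deposited and 0.47 with equal totals. It was 0.05 with quantile normalization and -0.04 with cyclic loess. Tyrobp lies on the plus strand of chromosome 7, from 30413760 to 30417585 in mm10. Its end is 126 bases from the end of Hcst on the opposite strand. Hcst encodes DAP10, the other small adaptor of this family, and is named because of its position. Hcst had 53.5, 40.7 and 41.3 FPKM with IL-33, against 51.3, 51.4 and 72.6 FPKM with PBS, and did not pass as deposited (change -0.36, SE 0.16, limma adjusted p = 0.0993). Hcst was called lower under the 3 other scalings (-0.69, -0.55 and -0.55).

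Fcer1g, the gene of the Fc receptor gamma chain, tracked Tyrobp closely. It had 1433, 1269 and 1261 FPKM with IL-33, against 801, 987 and 1025 FPKM with PBS (change 0.50, SE 0.11, limma adjusted p = 0.00828). As for Tyrobp, the call was lost under the 3 other scalings, at 0.16 with equal totals, 0.04 by quantile normalization and -0.01 by cyclic loess. The log2 ratio of Tyrobp to Fcer1g was 0.95, 0.94 and 0.91 with IL-33, against 0.92, 0.92 and 0.90 with PBS. The groups overlapped, and the difference of 0.02 gave an exact two-sided permutation p of 0.3 (3 against 3 libraries, smallest possible p 0.1). Among tested genes outside the set, Fcer1g was also the gene whose profile over the 6 libraries was most like that of Tyrobp.

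The 4 CD300 members sit in 1 cluster on chromosome 11 that spans 244 kb in mm10. Cd300a is at one end on the plus strand (114890041 to 114904654). Cd300lb (114922781 to 114934386), Cd300e (115051917 to 115062177) and Cd300lf (115116214 to 115133992) follow on the minus strand. Direction followed neither role, since 1 inhibitory and 1 activating gene rose (Cd300a and Cd300lb) and 1 of each fell (Cd300lf and Cd300e). The pair that rose lies at one end of the cluster and the pair that fell at the other, although Cd300a was not called under the 3 other scalings and stood at -0.01 with equal totals. This order holds for the 4 members only. Cd300c, the next family gene after Cd300lb (114956116 to 114969157), is not a member and fell (-0.41, SE 0.10).

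Cd300a encodes an ITIM receptor for phosphatidylserine and phosphatidylethanolamine that restrains mast cells, eosinophils and dendritic cells. Its level was 88.5, 91.0 and 91.4 FPKM with IL-33, against 62.9, 74.3 and 79.0 FPKM with PBS. The IL-33 libraries were close to each other and all above the PBS libraries, of which replicate 1 was lowest. The change was 0.33 (SE 0.09, limma adjusted p = 0.0185). The call was lost without IL-33 replicate 2 or 3 (adjusted p up to 0.0538), and the change was -0.01 with equal totals, 0.06 with quantile normalization and 0.05 with cyclic loess.

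Cd300lf encodes the other ITIM receptor, CLM-1, which in mice binds phosphatidylserine and ceramide and serves as an entry receptor of murine norovirus. It had 35.5, 39.5 and 43.6 FPKM with IL-33, against 44.8, 53.4 and 58.6 FPKM with PBS. The groups did not overlap, with a gap between IL-33 replicate 3 and PBS replicate 1 that was small beside the spread within each group. The change was -0.39 (SE 0.12, limma adjusted p = 0.025) and was lost without IL-33 replicate 1 or 2 or PBS replicate 2 or 3 (adjusted p up to 0.0825), while equal totals gave -0.72 and cyclic loess -0.56. Cd300lf lies within the span of Rab37, a GTPase gene of the opposite strand that is named for this overlap. The libraries were made with a stranded kit, but the use of strand in quantification is not given in the sources used here, so reads of the 2 genes may not be fully separated. Rab37 had 7.27, 8.16 and 8.24 FPKM with IL-33, against 13.1, 12.4 and 14.1 FPKM with PBS.

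Cd300lb encodes CLM-7, an activating receptor that pairs with DAP12. It had 31.6, 29.98 and 21.6 FPKM with IL-33, against 14.7, 15.5 and 16.4 FPKM with PBS. IL-33 replicate 3 was the lowest of its group and still above all PBS libraries. A processed pseudogene on the opposite strand lies within the span of Cd300lb. The mean was 27.7 ± 5.36 FPKM with IL-33 and 15.5 ± 0.87 FPKM with PBS (SD, n = 3 each), 1.79-fold higher, with a change of 0.78 (SE 0.14, limma adjusted p = 0.00334). Equal totals gave 0.46, quantile normalization 0.73 and cyclic loess 0.75, and leaving out 1 library gave 0.68 to 0.94.

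Cd300e encodes CLM-2, an activating receptor which in humans marks monocytes and myeloid dendritic cells. It had 33.5, 32.5 and 29.5 FPKM with IL-33, against 58.2, 79.4 and 81.2 FPKM with PBS. Every IL-33 library was well below every PBS library. The mean was 31.8 ± 2.11 FPKM with IL-33 and 72.9 ± 12.8 FPKM with PBS (SD, n = 3 each), a fall to 0.436 of the PBS level, with a change of -1.16 (SE 0.13, limma adjusted p = 0.000764). Only 1.42% of tested genes had a lower change.

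Set against each other within a library, Cd300lb stood at 94.2%, 92.3% and 73.3% of the Cd300e level with IL-33, against 25.2%, 19.5% and 20.2% with PBS. The 2 activating genes were thus nearer to each other with IL-33 and further apart with PBS, and a ratio within a library does not move with a linear scaling between libraries. The log2 ratio of Cd300a to Cd300lf was 1.32, 1.21 and 1.07 with IL-33, against 0.49, 0.48 and 0.43 with PBS. Both pairs were chosen after their values were seen and are a description. Summed over the 2 inhibitory genes, the level was 124 to 135 FPKM with IL-33 and 108 to 138 FPKM with PBS, and the groups overlapped. Summed over the 2 activating genes, it was 51.1 to 65.1 FPKM with IL-33 and 72.8 to 97.6 FPKM with PBS, with no overlap.

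The windows around the starts of the 3 minus-strand CD300 genes, which moved in opposite directions, and of Trem1 are shown so that their bases can be compared. They run 5′ to 3′ from 250 bases before the start to 50 bases after it, from RefSeq on GRCm38.p6, the assembly of mm10, with capitals at GGAAGT, the core that ETS factors such as the myeloid factor PU.1 bind, on either strand (ACTTCC on the opposite one). The windows are chr11:114934322-114934621, minus strand for Cd300lb, chr11:115061990-115062289, minus strand for Cd300e, chr11:115133943-115134242, minus strand for Cd300lf and chr17:48232489-48232788, plus strand for Trem1.
Cd300lb: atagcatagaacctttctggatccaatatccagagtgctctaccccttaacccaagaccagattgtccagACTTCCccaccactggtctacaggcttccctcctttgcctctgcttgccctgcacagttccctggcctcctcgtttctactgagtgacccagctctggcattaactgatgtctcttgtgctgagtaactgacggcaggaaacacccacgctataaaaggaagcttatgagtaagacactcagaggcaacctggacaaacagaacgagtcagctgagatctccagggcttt
Cd300e: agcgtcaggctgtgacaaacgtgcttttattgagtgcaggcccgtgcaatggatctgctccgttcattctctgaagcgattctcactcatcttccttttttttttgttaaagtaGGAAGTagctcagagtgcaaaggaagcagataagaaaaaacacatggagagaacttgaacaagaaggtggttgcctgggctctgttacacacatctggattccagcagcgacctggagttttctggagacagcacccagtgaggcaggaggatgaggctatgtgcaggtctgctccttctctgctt
Cd300lf: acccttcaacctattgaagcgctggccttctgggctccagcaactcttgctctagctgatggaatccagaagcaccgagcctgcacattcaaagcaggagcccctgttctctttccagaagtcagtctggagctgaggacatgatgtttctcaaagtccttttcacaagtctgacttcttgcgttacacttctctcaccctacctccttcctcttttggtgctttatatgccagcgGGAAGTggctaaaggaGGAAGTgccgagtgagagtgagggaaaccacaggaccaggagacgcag
Trem1: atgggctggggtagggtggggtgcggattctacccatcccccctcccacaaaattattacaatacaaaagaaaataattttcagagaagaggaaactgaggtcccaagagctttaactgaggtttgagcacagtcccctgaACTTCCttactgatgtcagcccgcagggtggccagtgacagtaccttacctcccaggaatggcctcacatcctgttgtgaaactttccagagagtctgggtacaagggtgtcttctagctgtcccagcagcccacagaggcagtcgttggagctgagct
The first of these rose and the other 3 fell. Distances are from the RefSeq starts, which for Cd300lb, Cd300e and Trem1 differ from the ends of the GENCODE spans given for these genes. The motif begins 180 bases before the start of Cd300lb and 109 bases before that of Trem1, both on the opposite strand. In Cd300e it begins 136 bases before the RefSeq start, which is within the GENCODE span of the gene (to 115062177). Cd300lf holds it 14 bases before the start and again just after it, the second copy within the longer PU.1 form GAGGAAGT. RefSeq windows were matched for 7 of the 10 members. GGAAGT was in 5 of those 7 and in 23.8% of all 32851 windows, and GAGGAAGT in 1 of 7 and in 3.2%, both strands searched. Besides the 4 genes shown, Treml4 holds GGAAGT, 46 bases before its start on the opposite strand. The windows of Cd300a, which rose as deposited, and of Trem2, which was not tested, do not hold it.

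The TREM members sit in a cluster on chromosome 17 that spans 121 kb from Trem1 to Trem2 in mm10, all on the plus strand. None of the 4 tested rose: Trem1 and Trem3 fell, and Treml2 and Treml4 did not pass.

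Trem1 encodes a DAP12-coupled receptor that amplifies inflammatory signalling in neutrophils and monocytes. It lies from 48232768 to 48246924 and had 6.0, 7.57 and 3.81 FPKM with IL-33, against 7.79, 10.5 and 11.9 FPKM with PBS. The groups were separated by a narrow gap, between IL-33 replicate 2 and PBS replicate 1. A processed pseudogene on the opposite strand overlaps the gene. The change was -0.73 (SE 0.23, limma adjusted p = 0.0295). It was lost without IL-33 replicate 1 or 3 or PBS replicate 2 or 3 (adjusted p up to 0.0811, changes from -0.77 to -0.50), without a filter on low values (adjusted p = 0.0625), with quantile normalization (-0.64, adjusted p = 0.0558) and with cyclic loess (-0.60, adjusted p = 0.0697).

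Trem3, the next gene of the cluster (48247777 to 48258841), encodes another DAP12-coupled receptor of mouse macrophages that has no functional human counterpart. It had 9.23, 9.0 and 5.58 FPKM with IL-33, against 14.8, 20.8 and 19.9 FPKM with PBS. Every PBS library exceeded every IL-33 library. The mean was 7.93 ± 2.05 FPKM with IL-33 and 18.5 ± 3.21 FPKM with PBS (SD, n = 3 each), a change of -1.14 (SE 0.20, limma adjusted p = 0.00297), and -1.29 to -0.94 with 1 library left out. IL-33 replicate 3 was the lowest library for both Trem1 and Trem3.

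Trem2 encodes a DAP12-coupled receptor for lipids and lipoproteins, best known in microglia and tissue macrophages. It lies from 48346401 to 48354147 and had 5.25, 1.15 and 0.65 FPKM with IL-33, against 0.85, 0.71 and 0.83 FPKM with PBS. It was not tested because 1 FPKM was reached in too few libraries. The groups overlapped, since IL-33 replicate 3 was the lowest of all 6, and an exact two-sided permutation test gave p = 0.4 (smallest possible p 0.1). The mean difference rests on IL-33 replicate 1. That library was also the one with the most Arg1, an arginase gene of alternatively activated macrophages named because of its values, at 183 FPKM compared with 25.6 and 9.88 FPKM in IL-33 replicates 2 and 3.

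Treml4 encodes a receptor of splenic dendritic cells and macrophages that binds dying cells and enhances TLR7 signalling in mice. It had 172, 163 and 170 FPKM with IL-33, against 146, 205 and 210.1 FPKM with PBS, from 48264295 to 48275360. The IL-33 libraries were tightly grouped and lay between PBS replicate 1 and the other PBS libraries. The change did not pass (-0.14, SE 0.14, 95% interval -0.46 to 0.19, limma adjusted p = 0.432). It did pass, downwards, without PBS replicate 1 (-0.30), with equal totals (-0.47, adjusted p = 0.0107), with quantile normalization (-0.52, adjusted p = 0.0064) and with cyclic loess (-0.51, adjusted p = 0.00688).

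Treml2 encodes TLT-2, found on B cells, neutrophils and macrophages. It lies from 48299498 to 48312533 and had 5.20, 5.57 and 4.09 FPKM with IL-33, against 11.9, 5.66 and 4.42 FPKM with PBS. PBS replicate 1 stood apart, and the other 5 libraries overlapped. The change did not pass (-0.39, SE 0.30, 95% interval -1.09 to 0.31, limma adjusted p = 0.3), and without PBS replicate 1 it was -0.02. PBS replicate 1 also held the most B cell transcript. The summed FPKM of 9 B cell markers was 484, 422 and 358 with IL-33, against 787, 432 and 323 with PBS. Of those 9 markers none rose and 3 fell. The part of B cells in the Treml2 values was not tested.

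**Figure D2:**
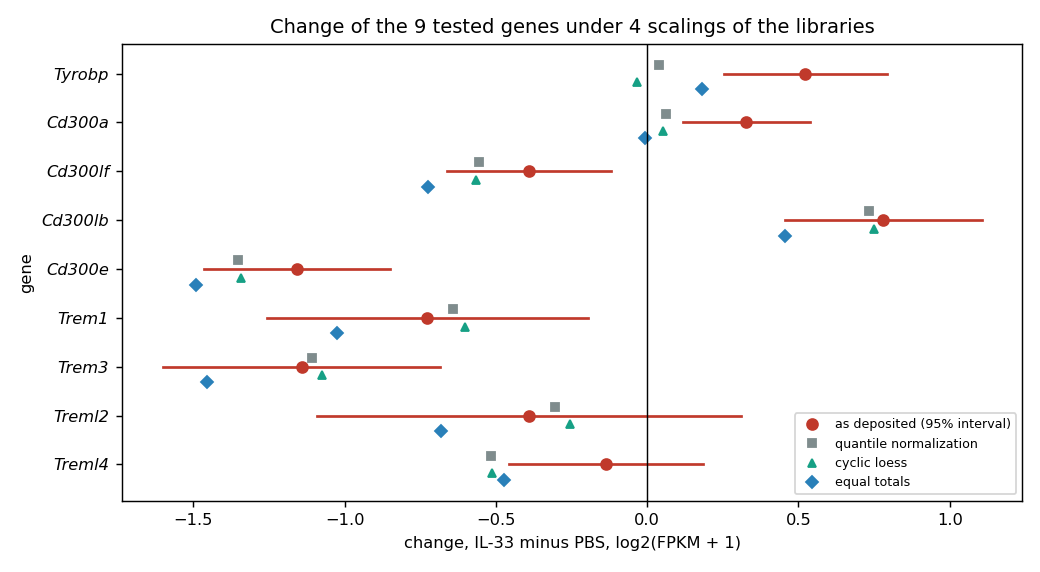
Change of each tested member (IL-33 minus PBS, log2(FPKM + 1)) as deposited, with its 95% interval from limma, and under 3 other scalings of the libraries. Cd300lb stays above 0 and Cd300e and Trem3 below -1 under all 4, whereas Tyrobp is at 0.52 as deposited and at -0.03 with cyclic loess and Cd300a at 0.33 as deposited and at -0.01 with equal totals.

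To compare receptors without any scaling between libraries, each was expressed as a log2 ratio to Tyrobp within the library. Tyrobp served as a common denominator and is not the adaptor of every receptor, since Cd300a and Cd300lf, for instance, encode ITIM receptors. The ratios are thus no measure of receptor per adaptor. No pseudocount was used. Among the other tested genes, 64.6% had a ratio to Tyrobp that was lower in all 3 IL-33 libraries than in all 3 PBS libraries. The same held for 7 of the 9 receptors, which are 7 of the 8 that were tested, and the count is a description of levels beside the adaptor. Each of the 7 had the smallest exact two-sided permutation p that 3 against 3 libraries allow, 0.1. The 9 ratios share the Tyrobp values, so they are not independent, and none of the 9 tests could reach 0.05. Cd300e stood at 1.21%, 1.34% and 1.24% of the Tyrobp level with IL-33, against 3.85%, 4.26% and 4.25% with PBS (log2 difference -1.70). Trem3 differed by -1.77, Trem1 by -1.35, Treml2 by -0.97, Cd300lf by -0.92, Treml4 by -0.66 and Cd300a by -0.19. The Treml2 difference was -0.44 without PBS replicate 1, and that of Cd300a was -0.11 without IL-33 replicate 1. Cd300lb overlapped between the groups, at 1.14%, 1.23% and 0.91% of Tyrobp with IL-33, against 0.97%, 0.83% and 0.86% with PBS (log2 difference 0.30, exact permutation p = 0.2). Trem2 overlapped too (0.47, exact permutation p = 0.8), and its difference turned to -0.33 without IL-33 replicate 1. With Fcer1g as the denominator the differences moved by little, for instance to -1.68 for Cd300e, but the groups then overlapped for Treml2. Tyrobp stood at 7.15, 6.41 and 6.41 times the summed FPKM of the 9 receptors with IL-33, against 4.18, 4.0 and 3.96 times with PBS. Summed, the 9 receptors had 370 to 387 FPKM with IL-33 and 362 to 482 FPKM with PBS, so that their groups overlapped while the adaptor was higher in each IL-33 library.

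**Figure D3:**
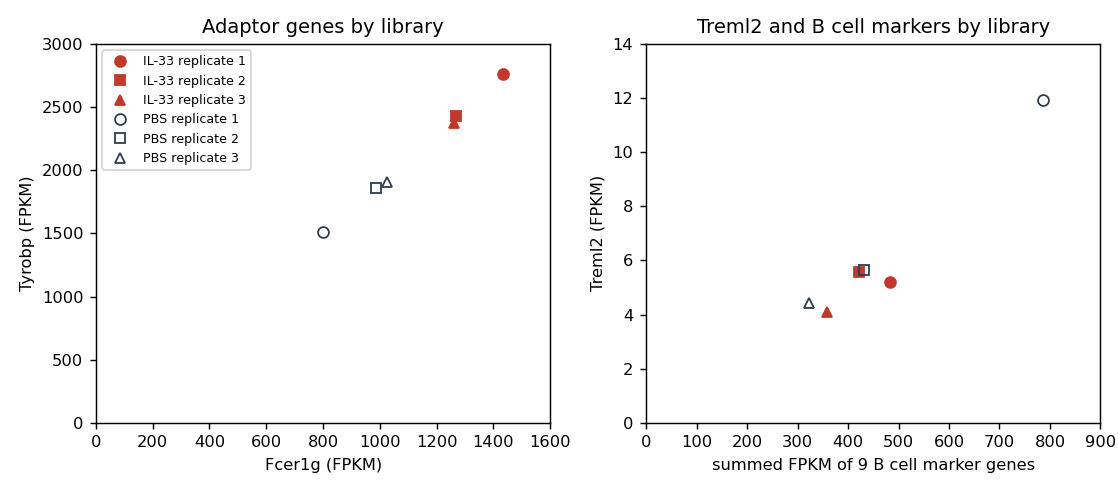
Left, Tyrobp against Fcer1g by library, both in FPKM. Right, Treml2 in FPKM against the summed FPKM of 9 B cell markers. The 6 libraries lie on 1 line through the origin on the left, with log2 ratios between 0.90 and 0.95, and PBS replicate 1 stands apart from the other 5 on the right.

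Other genes of the 2 families were read from the tables beside the members. Cd300lg, which encodes nepmucin, a mucin-like adhesion molecule of vessel walls on the same chromosome, had 14.9, 12.5 and 12.3 FPKM with IL-33, against 4.66, 4.35 and 3.51 FPKM with PBS (change 1.46, SE 0.12, limma adjusted p = 0.000254). Cd300lh, an older symbol of Cd300ld3, had 0.72, 0.76 and 0.27 FPKM with IL-33, against 2.70, 2.95 and 2.86 FPKM with PBS (-1.29, SE 0.14, limma adjusted p = 0.000748). The value of Cd300lh is uncertain as to the gene, because 82.1% of the 50-base windows of its transcripts recur in near-identical neighbours. Cd300c, an activating member, fell (-0.41, SE 0.10, limma adjusted p = 0.0128) and Cd300ld did not pass as deposited (-0.22, SE 0.11). Cd300ld was called lower without PBS replicate 1 (-0.33) and under the 3 other scalings (-0.56 with equal totals, -0.41 by quantile normalization and -0.41 by cyclic loess). On chromosome 17, 9830107B12Rik, which RefSeq also calls Trem5, had 2.35, 1.59 and 1.00 FPKM with IL-33, against 0.46, 0.17 and 0.13 FPKM with PBS, and rose (limma adjusted p = 0.00478). B430306N03Rik, also called Treml6, did not pass as deposited (-0.10) and was called lower with equal totals (-0.41). Treml1, a platelet receptor gene, and Gm11710 were below 1 FPKM in every library. Of the 6 tested, 2 rose and 2 fell. Among the members, Cd300a shared 3.45% and Cd300lf 2.44% of such windows with other genes, and the other 8 members shared none.

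The signalling genes below the adaptors moved in both directions. Of 22 genes of the ITAM adaptor and kinase cascade, 8 rose, 5 fell and 9 did not pass, with a median change of 0.04. Bcl10, a scaffold of the NF-κB branch, rose by 0.63 (SE 0.07), Btk, a kinase downstream of Syk, by 0.39 (SE 0.07) and the Src family kinase gene Lyn by 0.37 (SE 0.08). Pik3ap1, which links receptors to PI3-kinase, fell by 0.74 (SE 0.07). Fgr, a Src family kinase gene of myeloid cells, did not pass as deposited (change 0.05, SE 0.09) and was called lower under the 3 other scalings (-0.29, -0.30 and -0.31). This split turned round with scaling: with equal totals 1 rose and 12 fell, quantile normalization gave 3 and 10, and cyclic loess 3 and 11. The changes of Btk and Lyn were not called under the 3 other scalings, at 0.05 and 0.03 with equal totals, and that of Lyn was -0.03 by quantile normalization and -0.01 by cyclic loess.

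Of 8 effectors of inhibitory receptors 3 rose, 3 fell and 2 did not pass. The largest change was that of Dok2, an adaptor that restrains Ras signalling, at 177, 157 and 110.1 FPKM with IL-33, against 15.3, 14.2 and 20.5 FPKM with PBS (3.06, SE 0.19, limma adjusted p = 0.000123). Its relative Dok1 rose by 0.58 (SE 0.07) and Csk, a kinase that inactivates Src family kinases, by 0.30 (SE 0.07), although Csk stood at -0.04 with equal totals and at -0.07 with cyclic loess. Inpp5d, which encodes the phosphatase SHIP1, fell by 0.32 (SE 0.07). Ptpn6, which encodes SHP-1, is named for its role at ITIMs and had 260.1, 254 and 238 FPKM with IL-33, against 317, 307 and 290.0 FPKM with PBS (-0.28, SE 0.07, limma adjusted p = 0.0116). Ptpn11 (change -0.12, SE 0.07) and Inppl1 (0.17, SE 0.08) did not pass as deposited, while with equal totals Ptpn11 was called lower (-0.45) and Inppl1 stood at -0.14.

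Other receptors that pair with DAP12 also moved both ways. Of 11 tested, 3 rose and 5 fell, and 1 rose under each of the 3 other scalings, with the replicate block or without IL-33 replicate 1. Pilrb1 and Pilrb2 were the 2 whose calls were lost under the scalings. Those that fell included Klra8 (-1.59, SE 0.15) and Klrk1 (-1.07, SE 0.11), activating receptors of NK cells, and Siglech (-1.93, SE 0.18), a receptor of plasmacytoid dendritic cells. Cd200r3, a receptor of basophils and mast cells, rose by 1.58 (SE 0.13). Sirpb1a (-0.02, SE 0.12) and Sirpb1b (0.26, SE 0.16) did not pass as deposited, while Sirpb1a was called lower under the 3 other scalings (-0.36, -0.30 and -0.32) and Sirpb1b turned to -0.07 with equal totals. Of 14 other ITIM receptors 6 rose and 3 fell, beside 28% higher and 25.5% lower over all tested genes. Those that fell were Ceacam1 (-1.12, SE 0.17), Siglece (-0.64, SE 0.15) and Lair1 (-0.56, SE 0.11), each also called lower under the 3 other scalings. Fcgr2b, the inhibitory IgG receptor, had 400.0, 372 and 319 FPKM with IL-33, against 63.6, 73.8 and 56.1 FPKM with PBS (2.48, SE 0.12, limma adjusted p = 4.76e-05). Clec4a2 rose by 1.61 (SE 0.16), Cd200r1 by 1.13 (SE 0.12) and Lilrb4a by 0.99 (SE 0.14), whereas Sirpa (0.09, SE 0.11) and Pirb (0.19, SE 0.09) did not pass as deposited. Under the 3 other scalings Sirpa was called lower (-0.25, -0.32 and -0.33) and Pirb stood at -0.14 to -0.16 without a call.

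Among 9 tested ligands, partners and sheddases 2 rose and 1 fell. Apoe, whose product is a ligand of TREM2, had 603, 487 and 663 FPKM with IL-33, against 890, 1233 and 1405 FPKM with PBS (change -0.99, SE 0.18, limma adjusted p = 0.00392). Clu, the gene of clusterin and another TREM2 ligand, rose by 1.19 (SE 0.20), and Adam10, a protease that sheds TREM2, by 0.34 (SE 0.06) as deposited and 0.01 with equal totals. Pglyrp1, whose product is a ligand of TREM1 (-0.24, SE 0.10), and Hmgb1 (0.14, SE 0.06) did not pass as deposited. Pglyrp1 was called lower without PBS replicate 1 (-0.31) and under the 3 other scalings (-0.58, -0.52 and -0.55). Hmgb1 turned to -0.20 with equal totals and -0.22 by cyclic loess, both called lower, and to -0.21 by quantile normalization, which was not called.

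A CD11c sort of spleen can hold other cells, and their markers moved beside the members. Of 12 tested neutrophil markers 9 rose and 2 fell, with a summed level of 1264 to 2542 FPKM with IL-33 and 532 to 859 FPKM with PBS. The 9 that rose included Retnlg (2.44, SE 0.21), Ngp (2.31, SE 0.36) and S100a8 (1.36, SE 0.27). The 2 that fell were Csf3r (-0.54, SE 0.16) and Mmp9 (-0.75, SE 0.27). The call of Csf3r was lost without PBS replicate 1 or 3, and that of Mmp9 without any 1 of the PBS libraries. Mmp9 was also not called by quantile normalization or cyclic loess. Of 10 markers of nonclassical (Ly6C-low) monocytes, whose known mouse signature includes Cd300e and Treml4, 2 rose and 6 fell. The sums of 1166 to 1248 FPKM with IL-33 and 1165 to 1513 FPKM with PBS overlapped, but most of them was Nr4a1, which was not called (means of 797 and 778 FPKM). The 6 that fell were Cx3cr1, Ace, Spn, Itgal, Pou2f2 and Eno3, and the 2 that rose were Cd36 (1.04, SE 0.12) and Fabp4 (0.71, SE 0.24), of which Fabp4 was not called under the 3 other scalings. Of 8 classical monocyte markers 4 rose and 2 fell (1346 to 2717 FPKM with IL-33 and 1204 to 1332 FPKM with PBS). The largest part of the sum was Plac8 (IL-33 and PBS means of 1050 and 878 FPKM). Ly6c2 fell (-1.30, SE 0.28) and was also called lower under the 3 other scalings. Fn1 had 160, 114 and 75.5 FPKM with IL-33, against 4.70, 2.32 and 1.92 FPKM with PBS. Ccr2 rose (0.66, SE 0.20) but was not called under the 3 other scalings, and F13a1 rose (0.92, SE 0.28) though its groups overlapped.

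Of 11 red pulp macrophage markers 2 rose and none fell (3950.3 to 5405 FPKM with IL-33 and 2750 to 4711 FPKM with PBS). Of 9 eosinophil markers 7 rose and none fell (879 to 1258 FPKM with IL-33 and 218 to 311 FPKM with PBS), and of 6 tested basophil and mast cell markers 3 rose and 1 fell (45.7 to 51.6 FPKM with IL-33 and 45.9 to 50.7 FPKM with PBS). The basophil and mast cell sums overlapped, but their largest part was Kit, the 1 that fell (IL-33 and PBS means of 21.7 and 38.3 FPKM). The 3 that rose were Mcpt8 (2.81, SE 0.26), Prss34 (2.53, SE 0.24) and Cpa3 (1.52, SE 0.13), each also called higher under the 3 other scalings. All 8 NK cell markers fell (183 to 292 FPKM with IL-33 and 468 to 530 FPKM with PBS), as did all 7 T cell markers (61.1 to 82.8 FPKM with IL-33 and 164 to 317 FPKM with PBS). Of 7 plasma cell markers 6 rose (408 to 438 FPKM with IL-33 and 131 to 178 FPKM with PBS), and of 12 dendritic cell markers 5 rose and 5 fell (16976 to 18726 FPKM with IL-33 and 11080.3 to 12220.1 FPKM with PBS). Most of the dendritic cell sum was H2-Aa (IL-33 and PBS means of 9275 and 6370 FPKM) and H2-Ab1 (7511 and 4643 FPKM). Neither was called with cyclic loess. The most abundant marker was H2-Aa for dendritic cells, S100a8 for neutrophils, Plac8 for classical and Nr4a1 for nonclassical monocytes, C1qb for red pulp macrophages, Ear2 for eosinophils, Kit for basophils and mast cells, Gzma for NK, Lck for T, Cd79a for B and Jchain for plasma cells. No marker was listed at 0 in all 6 libraries, and Elane, Vcan, Ms4a2 and Tpsb2, defining genes of neutrophil precursors, classical monocytes, basophils and mast cells, were under 1 FPKM in all 6. The part of these cells in the changes of the members was not tested.

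Profiles were compared over the 6 libraries by the root mean square difference of centred log2(FPKM + 1) values, as a description in which the treatment itself is shared. The genes nearest to Tyrobp were Fcer1g (0.017) and Ost4 (0.020). Those nearest to Cd300lb were Prdx5 (0.044) and Rln3 (0.046), those nearest to Cd300e Bmp2 (0.081) and Scnn1a (0.092), and those nearest to Trem3 Scnn1a (0.135) and Cd300lh (0.151). Cd300a was nearest to Stx11 (0.020) and Decr1 (0.025), Cd300lf to Cnksr3 (0.045) and Gsap (0.050), and Treml4 to Lrrn3 (0.053) and Akap7 (0.058). Trem1 was nearest to Nupr1 (0.132) and Ace (0.149). Ace is a marker of nonclassical monocytes. Treml2 was nearest to Bend5 (0.084) and Blk (0.088), a B cell kinase gene whose 32.2 FPKM in PBS replicate 1 compared with 12.4 to 16.7 FPKM in the other 5 libraries.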

How the data were processed

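The authors deposited 1 table per library with FPKM values for 24346 gene symbols. The submitters' processing notes name alignment tools (TopHat2 2.0.13 and Bowtie2 2.2.3), Cuffnorm 2.2.1, SAMtools 0.1.19 and mm10 as the build. How Cuffnorm scaled libraries, which annotation it used and whether strand was used is not given in the sources here. FPKM values hold no counts, so absolute depth is unknown and no counting interval is given.

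Genes that reached 1 FPKM in 3 or more of the 6 libraries were tested on log2(FPKM + 1) with limma 3.58.1 in R 4.3.3 (variance trend, no block), and the fit was tested on simulated data. The simulation changed few genes and held no scaling difference between libraries, so it does not bear on the choice of scaling here. Single ratios were given exact two-sided permutation tests. The same-numbered libraries were not treated as pairs. Members, gene lists and the naming rule (all members; up to 4 called and 2 uncalled genes per pathway list; the top gene per marker list; the 2 nearest profiles; others where said) were chosen with earlier results of these data known. A gene so chosen is left out here. In the list of other family genes, 2 symbols that the references do not place in the families were dropped and 3 were added by RefSeq synonym after the tables were seen. Positions came from GENCODE M21 on GRCm38. Python 3.11.15, pandas 2.3.3 and matplotlib 3.10.9 made tables and figures. The alternatives tried were other pseudocounts, filters, scalings and variance settings, library weights, a replicate block and leaving out each library.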

Additional observations from a re-analysis of the deposited data

How the results depend on the processing

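With equal totals 1280 genes were called higher and 5840 lower, with limma, compared with 3230 and 2939 as deposited. The number of members called higher fell to 1 with equal totals, with cyclic loess and with quantile normalization, compared with 3 as deposited. Cd300a turned to -0.0085 with equal totals and Tyrobp to -0.0332 with cyclic loess. Leaving out each library gave 2622 to 3108 genes higher and 2214 to 2768 lower, 2 to 3 members higher and 2 to 5 members lower. The 2 lower members of that range were left without IL-33 replicate 1, PBS replicate 2 or PBS replicate 3.

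Of the ITAM cascade, 1 gene was higher and 12 lower with equal totals, 3 and 11 with cyclic loess, and 3 and 10 with quantile normalization (6 to 8 higher and 5 to 6 lower with 1 library left out). Of the other family genes, 4 were lower with equal totals, and 1 was higher and 1 lower with a filter of 5 FPKM (2 higher and 2 to 3 lower with 1 library left out). Of the other DAP12-paired receptors, 1 was higher with equal totals, quantile normalization, cyclic loess or the replicate block (1 to 4 with 1 library left out, the 1 being without IL-33 replicate 1). Of the other ITIM receptors, 6 were lower with equal totals, quantile normalization or cyclic loess, and 5 with library weights. Of the ligands and partners, 1 was higher with equal totals or a filter of 5 FPKM, and 4 were lower with equal totals, 2 with quantile normalization, 3 with cyclic loess and 2 with library weights (1 to 2 with 1 library left out).

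With the replicate number as a block 3 members were called higher and 4 lower, 2806 genes higher and 2452 lower. The deviations of same-numbered libraries correlated at 0.075, -0.0544 and 0.089, and 2 of 3 IL-33 libraries correlated best with their own number. These values do not settle whether the numbers mark pairs. The numbers were not taken as pairs because the labels do not say that they mark shared animals. The causes of these shifts were not tested. With FPKM alone, precision at low levels, as for Trem2, cannot be stated.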
